A study of Homo sapiens with 6 samples.

Results

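E2F transcription factors and the retinoblastoma family of pocket proteins form the switch that lets a cell leave G1 and copy its DNA. E2F1, E2F2 and E2F3 activate the genes of DNA replication, E2F4 and E2F6 act mainly as repressors, and E2F7 and E2F8 are atypical repressors that bind DNA without a DP partner and limit transcription late in S phase. The pocket proteins RB1, RBL1 (p107) and RBL2 (p130) bind E2Fs and silence their targets until cyclin-dependent kinases phosphorylate them. Several of these genes are E2F targets themselves, and several carry sites for microRNAs of the miR-17 family.

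The 10 family genes E2F1, E2F2, E2F3, E2F4, E2F6, E2F7, E2F8, RB1, RBL1 and RBL2 were found by matching the transcript identifiers of the count files to GENCODE gene symbols, 1 counted transcript for each gene, among 37339 matched transcription units (TUs). They were measured in K562, an established human cell line from chronic myelogenous leukaemia, grown in RPMI-1640 medium with fetal bovine serum and given no treatment. There were 2 PRO-seq libraries, in which engaged RNA polymerases are run on in isolated nuclei and their nascent RNA is sequenced, and 4 RNA-seq libraries of total RNA after removal of ribosomal RNA. All 6 libraries came from 1 source of cells of 1 line, so the spread between libraries may be technical and says nothing about other cultures. The paper based its main analyses on earlier published K562 data. It found half-life estimates from those less variable, and closer to published estimates, than ones from these libraries. Counts on TUs ranged from 5732780 to 9002746 in the RNA-seq libraries and were 6993816 and 7245632 in the PRO-seq libraries.

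The labelled cell type was checked against marker genes. All 10 erythroid markers listed, among them GATA1 at 156.0 TPM, were above 10 TPM in RNA-seq. Of 12 markers of other cell types, 8 were in the table and 7 of these were under 1 TPM in RNA-seq, while the epithelial gene EPCAM stood at 120.3 TPM. RNA-seq libraries 1 and 3 differed by 1.11 times, and libraries 2 and 4 by 1.12 times, the spread that sampling noise alone gives (chi-square per degree of freedom), against 1.71 to 2.10 for the other RNA-seq pairs and 1.62 for the PRO-seq pair. The share of records naming no TU was also alike within these pairs, 68.5% and 68.6% in libraries 1 and 3 and 66.5% in both 2 and 4. The 4 RNA-seq libraries may therefore stand for 2 independent replicates, and with each close pair summed to 1 library the edgeR fit gave the same calls for the family as reported here, 7 below and 2 above the median mRNA, with adjusted p of at most 1.64e-06.

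The promoters of 5 family genes held pairs or a trio of the sequence that E2Fs bind, and they are shown because E2F genes are known to be targets of E2Fs. Each line gives the 80 bases before the transcription start in the RefSeq promoter table (GRCh38.p14), 5′ to 3′ on the gene's strand, and capitals mark matches to the E2F motif on either strand.
E2F1, chr20:33686386-33686465, minus strand: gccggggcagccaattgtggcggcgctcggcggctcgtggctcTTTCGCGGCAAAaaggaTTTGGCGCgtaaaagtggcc
E2F2, chr1:23531234-23531313, minus strand: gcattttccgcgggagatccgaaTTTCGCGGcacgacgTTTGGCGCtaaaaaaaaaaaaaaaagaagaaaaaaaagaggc
E2F3, chr6:20401799-20401878, plus strand: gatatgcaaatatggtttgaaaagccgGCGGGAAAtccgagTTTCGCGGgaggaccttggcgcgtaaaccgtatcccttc
E2F6, chr2:11466162-11466241, minus strand: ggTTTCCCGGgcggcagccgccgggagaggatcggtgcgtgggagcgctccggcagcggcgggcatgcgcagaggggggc
RBL1, chr20:37095998-37096077, minus strand: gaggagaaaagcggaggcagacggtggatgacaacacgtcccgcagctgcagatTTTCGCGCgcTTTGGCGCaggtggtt

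The motif was searched as 8 words of 8 letters, TTTCCCGC, TTTCCCGG, TTTCGCGC, TTTCGCGG, TTTGCCGC, TTTGCCGG, TTTGGCGC and TTTGGCGG, on both strands of a window of 250 bases before to 50 bases after the start. This set of words was fixed after the E2F1 promoter had been seen. In E2F1 the matches began 37, 33 and 20 bases before the start, and the first and second overlap on opposite strands. In E2F2 they began 57 and 42 bases before it, in E2F3 53 and 39, and in RBL1 26 and 16. In E2F6 one began 78 bases and the other, outside the printed stretch, 183 bases before the start. Over all 35116 promoters 6.19% held the motif at least once and 0.379% at least 2 times, and over 10386 promoters of mRNA genes the shares were 10.1% and 0.712%. RefSeq entries were matched for 9 of the 10 genes, E2F8 being the one without. The RB1 entry lies 173 kb inside the gene and says nothing of its main promoter. Of the other 8 genes, E2F4, E2F7 and RBL2 held no match in this window, nor did a second entry for E2F3, 1.74 kb downstream. Among the 21 E2F target genes listed below that have an entry, 14 held the motif.

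Nascent transcription was given by the PRO-seq level in TPM, a measure scaled by length and by library total, computed over the TU's span less 1000 bp, and steady-state RNA by the RNA-seq TPM, computed over exons. Both are levels per length. The ratio of RNA-seq to PRO-seq at steady state is proportional to RNA half-life and is called here the relative half-life. It was set on a log2 scale on which the median mRNA is 0, so that a value of -1 is 1 doubling below the median mRNA. TUs of the 4 classes mRNA, lincRNA (intergenic noncoding), antisense and pseudogene with a span over 1000 bp were used, 35265 in all. TPM was scaled over these, and each needed a PRO-seq level over 10 TPM and an RNA-seq level over 1 TPM. Of the 10 family genes, 9 passed both thresholds, and 10009 TUs passed in all, 8788 of them mRNAs.

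Among the 9 genes past the thresholds, PRO-seq levels spanned less than RNA-seq levels. The thresholds differ between the assays, RB1, at 9.31 TPM in PRO-seq, was left out, and spans over all mRNAs were not computed. Across the 9 genes the PRO-seq level spanned 4.66 times from lowest to highest, and the RNA-seq level 15.8 times. Of these genes 7 had a relative half-life below that of the median mRNA and 2 above it (edgeR's quasi-likelihood test, Benjamini-Hochberg adjusted p under 0.05 over all TUs). The median of the 9 was -1.38, against 0 for all mRNAs, whose lower and upper quartiles were -1.06 and 1.08. A call is common at this precision. Among all mRNAs 45.0% were called below and 45.3% above, and among all TUs 50.0% below and 40.3% above. Against a difference of at least 2-fold, 5 family genes were called below (E2F8, E2F7, E2F2, E2F1 and E2F6) and 0 above, where 23.2% of mRNAs were called below and 24.2% above. Without the margin, DESeq2 also called 2 family genes above, and with it 0 passed an unadjusted p of 0.05 in edgeR. These are bulk libraries over all phases of the cell cycle, in which fewer cells that express a gene and less RNA per cell cannot be told apart.

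Among the activators, E2F1, the founding member of the family, was counted at chr20:32263283-32274191 (minus strand, 7 exons), on GRCh37 as all positions of counted transcripts here. Its PRO-seq levels were 128.6 and 150.4 TPM, and its RNA-seq levels were 30.9, 30.1, 32.9 and 27.3 TPM. The relative half-life was -1.50 (SE 0.087, adjusted p 1.82e-16), which is 2.83-fold below the median mRNA. By PRO-seq, E2F1 stood at the 89.0th percentile of mRNAs, and by RNA-seq at the 49.1st. The mRNAs most alike in both levels, by distance in log2 TPM over summed counts, were WASF2 (PRO-seq 139.1 TPM, RNA-seq 30.9 TPM, distance 0.033) and CC2D1B (135.5 and 31.3 TPM, distance 0.067).

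E2F2, an activator closely related to E2F1, was counted at chr1:23832930-23857725 (minus strand). Its PRO-seq levels were 110.7 and 130.8 TPM and its RNA-seq levels 17.7, 18.3, 17.2 and 16.5 TPM. The PRO-seq ranges of E2F1 and E2F2 overlapped, whereas every RNA-seq library had more E2F1 than any had E2F2. The relative half-life of E2F2 was -2.08 (SE 0.071, adjusted p 1.80e-22), lower than that of E2F1 by 0.58 on the log2 scale (SE of the difference 0.11).

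E2F3, the third activator, was counted at chr6:20402110-20493945 (plus strand). It had 149.6 and 136.0 TPM in PRO-seq and 41.9, 43.1, 42.7 and 40.6 TPM in RNA-seq. It was transcribed at a level that overlapped that of E2F1 and had the most RNA of the activators, with no overlap between libraries. Its relative half-life was -1.06 (SE 0.047, adjusted p 1.93e-19), and against a difference of at least 2-fold it was not called (adjusted p 0.072). The intronic transcript E2F3-IT1 lies on the same strand in 2.60% of the PRO-seq window and held 0 PRO-seq counts.

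Among the repressors, E2F4, the E2F most often found with RBL1 and RBL2 in resting cells, was counted at chr16:67226058-67232821 (plus strand). Its PRO-seq levels of 80.8 and 92.6 TPM rest on 248 summed counts, the fewest of the 9 genes. Its RNA-seq levels were 104.5, 104.2, 109.7 and 108.3 TPM, above every other family gene in every library. The relative half-life was 1.00 (SE 0.091, adjusted p 1.31e-11), the highest of the family, at the 73.4th percentile of mRNAs. Against a difference of at least 2-fold it was not called (adjusted p 0.47).

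E2F6, a repressor that does not bind pocket proteins and works with a Polycomb complex, was counted at chr2:11584501-11606303 (minus strand). It had 118.6 and 118.5 TPM in PRO-seq and 26.9, 27.7, 29.9 and 27.8 TPM in RNA-seq. Its relative half-life was -1.38 (SE 0.067, adjusted p 1.96e-18), and its range over pairs of libraries overlapped that of E2F1. The transcript counted is not the canonical one but holds 100% of the canonical exonic bases.

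E2F7 was counted at chr12:77415031-77459349 (minus strand). It had 58.6 and 59.0 TPM in PRO-seq and 5.95, 6.88, 6.45 and 7.73 TPM in RNA-seq, the lowest RNA level of the family. Its relative half-life was -2.43 (SE 0.082, adjusted p 1.21e-22).

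E2F8, its closest relative, was counted at chr11:19245610-19263167 (minus strand). It had 205.0 and 184.3 TPM in PRO-seq, the highest of the family in both libraries, and 8.65, 12.3, 11.2 and 10.9 TPM in RNA-seq. Its relative half-life of -3.48 (SE 0.086, adjusted p 3.18e-26) was the lowest of the family and lay 11.1-fold below the median mRNA, at percentile 2.41 of mRNAs. By PRO-seq E2F8 stood at the 94.0th percentile of mRNAs, and by RNA-seq at the 22.0th. E2F8 had 3.31 times the PRO-seq level of E2F7 and 1.60 times its RNA-seq level, a difference in log2 relative half-life of -1.05 (SE 0.12). E2F4 and E2F8 were the extremes of the family. E2F4 had 0.446 times the PRO-seq level of E2F8 and 9.90 times its RNA-seq level, which puts their relative half-lives 22.2-fold apart. The counted E2F8 transcript holds 89.3% of the canonical exonic bases. The antisense gene CSRP3-AS1 covers 100% of the E2F8 PRO-seq window on the other strand and held 111 PRO-seq counts, against 1597 for E2F8. Whether reads were counted by strand is not stated, and the part of the antisense gene in the E2F8 level was not tested.

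Among the pocket proteins, RBL1 was counted at chr20:35624752-35724400 (minus strand). It had 79.2 and 84.9 TPM in PRO-seq and 27.2, 27.9, 29.1 and 28.1 TPM in RNA-seq. Its relative half-life was -0.85 (SE 0.050, adjusted p 2.54e-16).

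RBL2, the pocket protein most abundant in resting cells, was counted at chr16:53468383-53525560 (plus strand). It had 42.4 and 41.1 TPM in PRO-seq, the lowest of the 9 genes, and 34.0, 38.2, 33.1 and 37.8 TPM in RNA-seq. RBL2 was thus transcribed at 0.508 times the PRO-seq level of RBL1 and had 1.29 times its RNA-seq level, with no overlap between libraries in either assay. The relative half-life of RBL2 was 0.49 (SE 0.066, adjusted p 5.53e-08), above that of RBL1 by 1.33 on the log2 scale (SE 0.083). The gene AKTIP overlaps 12.5% of the RBL2 exons on the other strand and held 143 RNA-seq counts, against 2363 for RBL2. Against a difference of at least 2-fold, neither RBL1 nor RBL2 was called (adjusted p 1 for each).

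RB1, the retinoblastoma gene itself, was not measured as an mRNA by these counts. The transcript used for it spans chr13:48955386-49173572 (GRCh37, plus strand) and has 2 exons with 329 bases in all. The first, of 194 bases, lies in exon 17 of the 27 exons of the canonical transcript, and the second, of 135 bases, lies beyond it. The counted transcript ends 118 kb past the canonical end and holds 4.07% of the canonical exonic bases. Of its PRO-seq window, 46.1% lies within the canonical transcript. On the other strand LPAR6, inside that part, covers 25.4% of the window, and RCBTB2, beyond the canonical end, covers 20.4%. The counts were 23, 22, 16 and 18 in RNA-seq and 505 and 498 in PRO-seq. In TPM these were 18.0, 16.4, 18.7 and 18.3 for the RNA-seq libraries and 9.50 and 9.13 for the PRO-seq libraries, so the summed PRO-seq level of 9.31 TPM was under the threshold. The values describe this fragment. The mRNAs most alike in level were ASB8 (distance 0.14) and ETFDH (distance 0.21). Among mRNAs that passed the thresholds, 2.65% likewise had less than 10% of their canonical exonic bases counted.

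**Figure D1:**
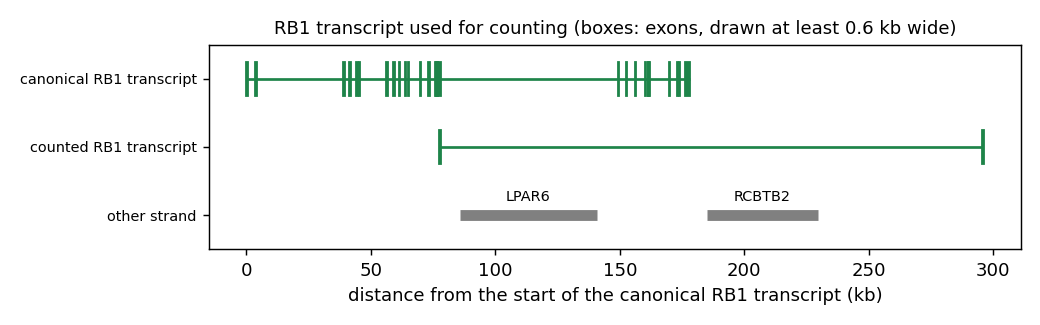
Exons of the canonical RB1 transcript and of the transcript counted for RB1, with the genes LPAR6 and RCBTB2 on the other strand, along the distance in kb from the start of the canonical transcript. The counted transcript shares 1 exon position with the canonical one, at 77.5 kb, and its second exon stands at 296 kb.

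The order of the 9 genes differed between the assays. By PRO-seq it ran E2F8, E2F3, E2F1, E2F2, E2F6, E2F4, RBL1, E2F7 and RBL2. E2F3 overlapped E2F1, E2F1 overlapped E2F2 and E2F2 overlapped E2F6 over the 2 libraries, as did E2F4 and RBL1, and the other neighbours did not overlap. By RNA-seq it ran E2F4, E2F3, RBL2, E2F1, RBL1, E2F6, E2F2, E2F8 and E2F7. Here E2F1 overlapped RBL1, and RBL1 overlapped E2F6, over the 4 libraries, which may be 2 replicates. By relative half-life it ran E2F4, RBL2, RBL1, E2F3, E2F6, E2F1, E2F2, E2F7 and E2F8. Over the 8 pairings of a PRO-seq with an RNA-seq library, which share libraries, the overlapping neighbours were E2F6 with E2F1 and E2F2 with E2F7. Spearman's rho between the PRO-seq and RNA-seq levels was -0.05 over the 9 genes and 0.553 over the 8788 mRNAs, given as descriptions across genes, which are not independent replicates.

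**Figure D2:**
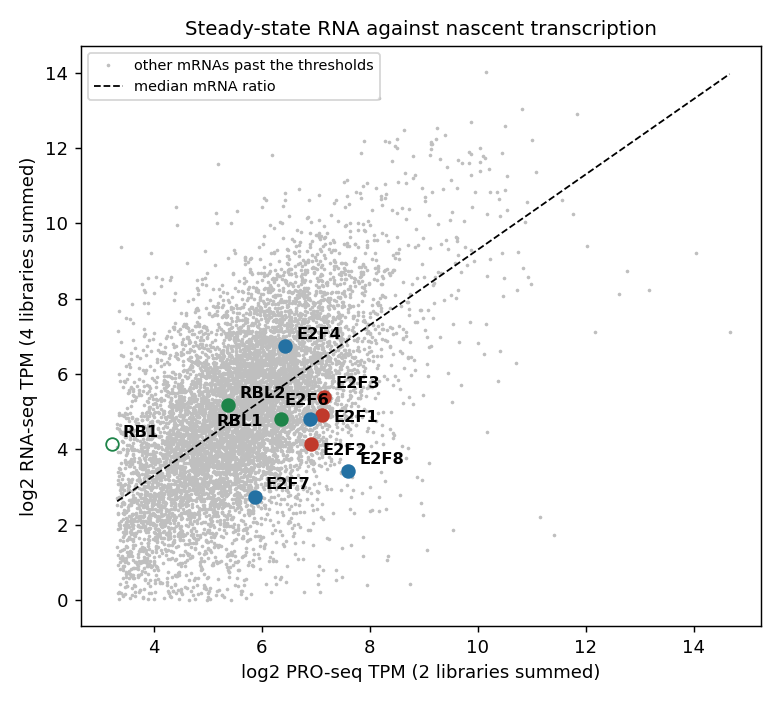
Log2 RNA-seq TPM against log2 PRO-seq TPM for the mRNAs past both thresholds (grey) and the family genes (activators red, repressors blue, pocket proteins green, RB1 fragment open), from summed counts. E2F4 and RBL2 lie above the dashed line of the median ratio, and the 7 genes called below lie under it, E2F8 farthest.

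**Figure D3:**
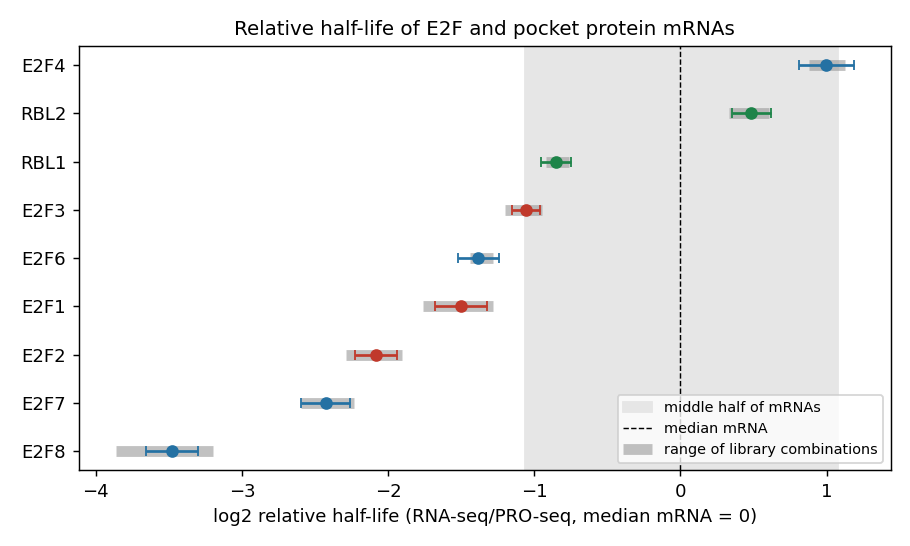
Log2 relative half-life of the 9 family genes past the thresholds, with the median mRNA at 0 (dashed). Points are edgeR estimates, whiskers are 95% confidence intervals of the fit, dark bars span the 8 pairings of a PRO-seq with an RNA-seq library, and the shaded band spans the quartiles of all mRNAs, -1.06 to 1.08. E2F8 at -3.48 and E2F4 at 1.00 are the extremes.

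The miR-17 family is shown next because its members are known to target E2F1, E2F2 and E2F3, and because its host gene was among the lists examined. These are mature sequences from RefSeq (GRCh38.p14), 5′ to 3′, with the seed, bases 2 to 8, in capitals. All 4 share 1 seed, and 8 mature microRNAs of the table hold it.
miR-17-5p: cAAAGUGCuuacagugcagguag
miR-20a-5p: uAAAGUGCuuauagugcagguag
miR-93-5p: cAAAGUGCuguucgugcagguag
miR-106b-5p: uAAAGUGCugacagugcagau

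The 3′ UTRs of the counted transcripts were read from the GRCh37 annotation and searched for GCACTTT, the reverse complement of this seed in DNA letters. The counted RB1 fragment has no 3′ UTR. Of the other 9 genes, 5 held the word, 10 times in all: E2F1 2, E2F2 3, E2F3 1, RBL1 2 and RBL2 2. E2F4, E2F6, E2F7 and E2F8 held none. The density was 0.555 per kb over the 9 genes and 0.183 per kb over 8091 mRNAs, of which 24.3% held at least 1. A stretch of 30 bases around 1 site in each of the 3 activators is printed, with the site in capitals and its own position on GRCh37.
E2F1, chr20:32264145-32264151, minus strand: ggggctctaactGCACTTTcggcccttttg
E2F2, chr1:23834847-23834853, minus strand: ctcagctggacaGCACTTTttagaaaagtt
E2F3, chr6:20492485-20492491, plus strand: cagatgacaccaGCACTTTaaactctttgt

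Words for other microRNA seeds were searched in the same way. CTACCTC, for let-7, was in 2 of the 9 genes (E2F2 and E2F6) at 0.166 per kb, against 10.6% of mRNAs and 0.063 per kb. CACTGCC, for miR-34, was in 1 (E2F3) at 0.055 per kb, against 16.7% and 0.105 per kb. TGCTGCT, for miR-16, was in 2 (E2F3 and E2F7) at 0.166 per kb, against 24.6% and 0.187 per kb. Over all mRNAs, those that held a word had a lower median log2 relative half-life than those that did not, for each of the 4 seeds. The medians were -0.47 with and 0.17 without for miR-17, -0.52 and 0.07 for let-7, -0.49 and 0.11 for miR-34, and -0.41 and 0.14 for miR-16. For miR-17, the values of family genes with and without the word overlapped, and 9 genes are too few to test this difference. E2F8 (-3.48), E2F7 (-2.43), E2F6 (-1.38) and E2F4 (1.00) held no miR-17 word. E2F2 (-2.08), E2F1 (-1.50), E2F3 (-1.06), RBL1 (-0.85) and RBL2 (0.49) held it. No microRNA was measured in these libraries, and 3′ UTR length was not adjusted for. The primary transcript that carries miR-17 and miR-20a, MIR17HG, had a PRO-seq level of 1556 TPM, an RNA-seq level of 318.7 TPM and a relative half-life of -1.59 (SE 0.052), with 38.0% of its canonical exonic bases counted.

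Other features of the counted transcripts varied within the family. E2F8 had a short 3′ UTR, of 598 bases, with a GC content of 27.9%, at percentile 2.81 of mRNAs, and E2F4 had one of 798 bases with 56.4% GC. The AU-rich pentamer ATTTA occurred 14 times in the 2767 bases of the E2F7 3′ UTR and 1 time in that of E2F8. Per kb of 3′ UTR it stood at 5.06 in E2F7, 5.01 in E2F4, 4.77 in E2F1, 4.44 in RBL2, 3.33 in E2F6, 2.74 in E2F3, 1.67 in E2F8, 1.66 in RBL1 and 0.58 in E2F2, against a median of 1.61 over mRNAs. The longer word TATTTAT was found 3 times in E2F1 and 0 times in E2F4. Splice junctions per kb of exon numbered 1.15 in E2F2, 1.19 in E2F3, 2.10 in E2F7, 2.11 in E2F6 and 2.23 in E2F1, below the median of 2.997 over mRNAs, and 3.50 in E2F8, 3.69 in RBL1, 4.27 in E2F4 and 4.33 in RBL2, above it. The 965 mRNAs whose promoter held the E2F motif had a median log2 relative half-life of 0.08, and the 6308 without it 0.01.

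The partners and targets of the family were examined as lists. Of 74 listed genes outside the family, 72 were in the table and 67 passed the thresholds. Of these 42 were called above the median mRNA, 20 below and 5 neither, where 45.3% of all mRNAs were called above and 45.0% below. The 67 include the lincRNA MIR17HG, called below. Among all TUs 40.3% were called above and 50.0% below. The same shares of mRNAs stand beside the counts of each list that follows. The median log2 relative half-life of the 67 genes was 0.49, against the median of -1.38 in the family and 0 in all mRNAs. For 7 of the 67 less than 50% of the canonical exonic bases were counted, CDK4 and HDAC2 among them.

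**Figure D4:**
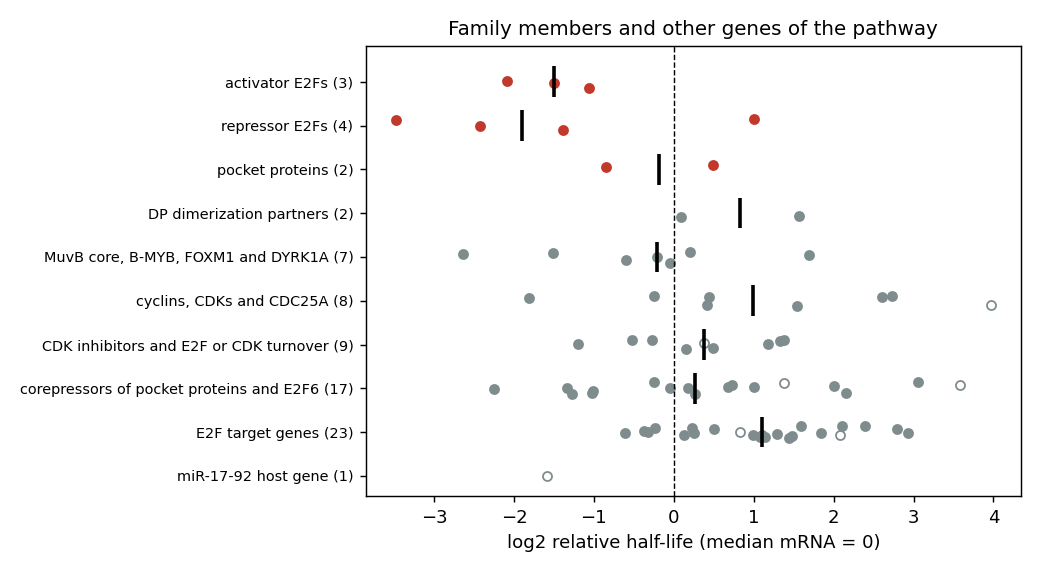
Log2 relative half-life of the family genes (red) and of the other genes of the pathway (grey) past the thresholds, 1 point per gene, grouped by list with the number of genes in brackets. Vertical bars are list medians, open points are genes with less than 50% of their canonical exonic bases counted, and the dashed line is the median mRNA. Activator E2Fs all lie below 0, and 19 of 23 E2F target genes were called above it, against 45.3% of all mRNAs.

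E2F target genes, which carry out DNA replication and nucleotide synthesis, were mostly above the median mRNA. Of 23 past the thresholds 19 were called above and 4 below, with a median of 1.10. The sliding clamp gene PCNA had the highest value, 2.93 (SE 0.055), with a PRO-seq level of 121.7 TPM and an RNA-seq level of 569.9 TPM, followed by RRM1, of ribonucleotide reductase, at 2.80 (SE 0.045). The lowest were the replication licensing factor CDT1 at -0.61 (SE 0.11) and ORC1, of the origin recognition complex, at -0.37 (SE 0.043). E2F1 was transcribed at 139.6 TPM, above PCNA, and had 30.2 TPM of RNA.

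The DP proteins pair with E2F1, E2F2, E2F3, E2F4 and E2F6 to bind DNA. TFDP1 had a relative half-life of 1.57 (SE 0.061, adjusted p 5.10e-21), and TFDP2 one of 0.09 that was not called (adjusted p 0.058). TFDP3 had 4 counts in RNA-seq and 0 in PRO-seq over all libraries, too few to measure. In the list of the MuvB core with which RBL1, RBL2 and E2F4 form the DREAM complex, together with MYBL2 (B-MYB), FOXM1 and the kinase DYRK1A, 2 of 7 genes were called above, 4 below and 1 neither. MYBL2 was highest at 1.69 (SE 0.058), followed by LIN9 at 0.21 (SE 0.052), and the lowest were FOXM1, which activates mitotic genes, at -2.63 (SE 0.10) and DYRK1A at -1.51 (SE 0.038).

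Cyclins and their kinases inactivate the pocket proteins. Of 8 past the thresholds 6 were called above and 2 below. The kinase genes CDK4, at 3.97 (SE 0.10), and CDK1, at 2.73 (SE 0.053), were highest, CDK4 with 19.6% of its canonical exonic bases counted. CCND1 (cyclin D1) at -1.81 (SE 0.092) and the phosphatase gene CDC25A at -0.25 (SE 0.053) were the 2 called below. CCND2 had 5014 counts in RNA-seq and 0 in PRO-seq, and LIN37 of the MuvB core had 16 and 0, so neither has a relative half-life here. For each, another counted TU on the same strand covers 100% of the PRO-seq window, and its part in the 0 counts was not tested.

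Among the CDK inhibitors and factors of E2F or CDK turnover, 5 of 9 were called above, 3 below and 1 neither. CDKN2C (p18), at 1.38 (SE 0.088), and CKS1B, a partner of the ubiquitin ligase SKP2, at 1.33 (SE 0.088), were highest, and CDKN2D (p19), at -1.20 (SE 0.39), and CDKN1A (p21), at -0.52 (SE 0.16), were lowest. CDKN2A had 1 count in RNA-seq and 5 in PRO-seq, and CDKN2B had 0 and 3, too few to measure either gene. Among the corepressors of pocket proteins and of E2F6, 9 of 17 were called above, 6 below and 2 neither. For both lists the shares over all mRNAs were 45.3% above and 45.0% below. The histone deacetylase genes HDAC2, at 3.59 (SE 0.090), and HDAC1, at 3.05 (SE 0.047), were highest, with 3.04% of the canonical exonic bases of HDAC2 counted. RYBP, of Polycomb complexes, at -2.24 (SE 0.048), and the scaffold gene SIN3A, at -1.34 (SE 0.047), were lowest.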

How the data were processed

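The authors deposited raw HTSeq counts per transcript for each library, with no normalization, having trimmed reads (cutadapt) and aligned them to GRCh38 (HISAT2); for PRO-seq, 500 bp at each end of a TU was left out. Tool versions and the strand setting were not stated in the sources used here. Records naming no TU (66.5% to 68.6% in RNA-seq, 86.5% and 88.6% in PRO-seq) were left out. Transcripts were joined by identifier to the GENCODE annotation lifted to GRCh37, which held 88.1% of 42371. Lengths and TU coordinates are from that annotation and may differ from those counted on.

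TPM was computed from counts with exon length (RNA-seq) and span less 1000 bp (PRO-seq). Levels come from counts summed over libraries unless given per library. RNA-seq was compared with PRO-seq by edgeR 4.0.16 in R 4.3.3 (TMM, glmQLFit, glmQLFTest, length offsets, centred on the median mRNA), with Benjamini-Hochberg adjustment over 10009 TUs and glmTreat for the 2-fold test. The procedure was tested on simulated data. PRO-seq measures polymerase density, so elongation speed enters every ratio. Standard errors cover the spread between libraries only. Those of differences between genes treat the genes as independent, although they were measured in the same libraries. Library preparation and read layout differed between the assays and cannot be told apart from the RNA-seq against PRO-seq contrast except through the median mRNA.

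All 10 family genes were named. In each pathway list the 2 highest and 2 lowest relative half-lives past the thresholds were named, all genes of lists of up to 4, those with under 10 summed counts in both assays as not measured, and for E2F1 and RB1 the 2 mRNAs nearest in level. EPCAM, GATA1, CCND2, LIN37, overlapping genes and sequence features were added after values were seen. The family genes and lists were chosen with earlier results of these data known. DESeq2 1.42.0, library totals, other filters and lengths, and leaving out libraries were tried as alternatives.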

Additional observations from a re-analysis of the deposited data

How the results depend on the processing

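Over 14 alternatives, the 9 family genes gave 126 values, of which 122 kept both direction and call, 4 lost the call, all under the 2-fold test (E2F3, E2F4, RBL1 and RBL2), and 0 turned direction. The 2-fold test called 0 family genes above the median mRNA, 26 pathway genes above and 7 below. It called 24.2% of all mRNAs above and 23.2% below. With a filter of at least 1 summed count in place of the TPM thresholds, 9 pathway genes were called below and 54 above. The main fit gave 20 and 42, and the family median under this filter was -0.59. That filter moved the values of mRNAs by a median of 0.63, since the median mRNA is then a lower one. It also let the RB1 fragment in at 2.26. With 500 bp removed from the PRO-seq span the family median was -1.25, the RB1 fragment entering at 1.59. Leaving out 1 library at a time gave medians from -1.41 to -1.37. A fit with the replicate number as a block, on replicates 1 and 2 of both assays, called 7 family genes below and 2 above and 20 pathway genes below and 42 above. The differences between replicates 1 and 2 showed little correlation between the assays (Pearson's r = -0.01 across 9917 TUs, which are not independent replicates). Technical noise alone would also give little correlation, so this cannot decide whether libraries of the same number are paired. The main fit did not pair them. Depth limits E2F4 most, with 248 PRO-seq counts, and E2F8 and E2F7 in RNA-seq, with 499 and 521.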
